A study of Mus musculus with 14 samples.

Results

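The genes described here encode 8 sugar-metabolizing enzymes of mouse liver: the hexokinases Hk1, Hk2 and Hk3, ketohexokinase (Khk), the aldolases Aldoa and Aldoc, and the pyruvate kinases Pklr and Pkm. They were chosen by name, as hepatic isozymes (Pklr and Khk, 2 genes) and isozymes that predominate in other tissues (the other 6 genes), with earlier results of these data known. Their probes were found through the RefSeq accessions on the arrays, which gave 9 probes for the 8 genes among 39,429 probes and 19,751 named genes. Liver RNA came from untreated male (M) and female (F) CD1 mice, an outbred strain, aged 3, 4 or 8 wk. The 6 groups are written by sex and age (M3 for males of 3 wk). They were set against each other in 7 comparisons, male over female at each age (M3/F3, M4/F4 and M8/F8) and 8 wk over each younger age in females (F8/F3 and F8/F4) and in males (M8/M3 and M8/M4). A pair of arrays served each comparison, with the dyes exchanged and made from separate pools of liver RNA, and a pool held 5 mice at 3 wk and 6 mice at 4 and 8 wk. Each group recurs in several comparisons, so that M8/M3, M8/M4 and M8/F8, for example, share the male 8 wk group and are not independent.

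Liver takes up glucose and fructose and can both burn sugars and make glucose. It differs from most tissues in using its own forms of several glycolytic enzymes. The high-affinity hexokinases Hk1, Hk2 and Hk3 put a phosphate on glucose in most other tissues, and Khk puts one on fructose. L-type pyruvate kinase, made from Pklr, carries out the last step of glycolysis in hepatocytes and is turned off by glucagon and on by sugar. The muscle and brain aldolases (Aldoa and Aldoc) and M-type pyruvate kinase (Pkm) are typical of other tissues, of fetal liver and of dividing cells, and a liver sample also holds the isozymes of its blood, immune and vascular cells.

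All 8 genes were measurable. The brightest probe of each was well above background by the scanner software's flag in 28 of 28 channels. Over the 14 arrays 55.2% to 77.2% of spots per channel met that condition, and 0 spots were saturated. Values are log2 ratios, male over female or 8 wk over the younger age, and each gene's relative level is its log2 level in a group against the mean of the 6 groups. A ratio "passed the test" at an adjusted p below 0.05 (limma, Benjamini-Hochberg over all probes and comparisons). It was "called" if it was also beyond 1.5-fold, up or down. With 2 pools per group the p-values rest on few samples and measure only the spread between these pools and arrays.

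Few of the isozyme ratios passed both conditions. Of 56 ratios (8 genes in 7 comparisons) 2 were called, both for Aldoc, in M8/M3 and M8/M4, where 17.8% and 10.8% of all genes tested were called. None of the 8 was called in F8/F4 (background 6.00%) or F8/F3 (11.7%), nor between the sexes at 8 wk (M8/F8, 6.40%), 4 wk (1.58%) or 3 wk (0.517%). Without the threshold on the ratio, 2 of 8 isozymes passed the test in F8/F4 (background 21.3%) and 2 in F8/F3 (33.6%). In males 3 passed in M8/M4 (29.6%) and 5 in M8/M3 (42.0%), namely Hk1, Pklr, Pkm, Aldoc and Aldoa. Between the sexes 2 passed at 8 wk (21.8%), 1 at 3 wk (2.89%) and 0 at 4 wk (7.90%). None of these shares was set apart from its background by a test. In M4/F4, 1 of the 8 had an unadjusted limma p under 0.05 (Pklr, 0.0106), as did 21.1% of all genes tested. The sex difference in the change from 3 to 8 wk (M8/M3 minus F8/F3) was called for 1 of 8, Pklr, and for 3.35% of all genes tested (6.49% without the threshold on the ratio). From 4 to 8 wk it was called for 0 of 8, against 1.31% of genes tested (2.08%).

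**Figure D1:**
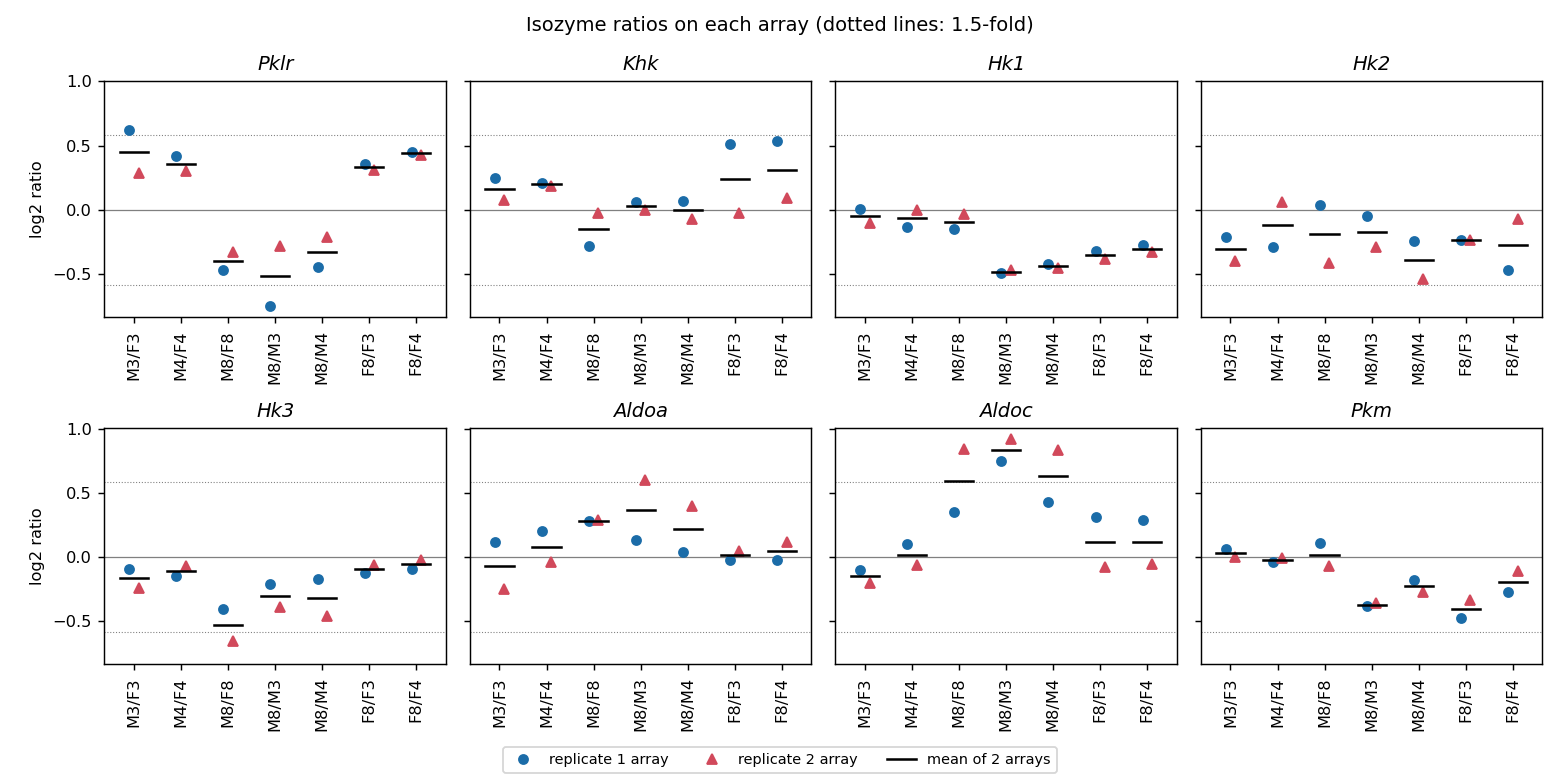
Log2 ratio (vertical axis) of each isozyme gene on each of the 14 arrays, by comparison (horizontal axis). Circles are replicate 1 arrays, triangles replicate 2 arrays, bars their means, and dotted lines mark 1.5-fold. Pklr lies above 0 in M3/F3 and M4/F4, below 0 in M8/F8, M8/M3 and M8/M4 and above 0 in F8/F3 and F8/F4, whereas the Hk1 and Pkm points lie below 0 in all 4 age comparisons.

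Pklr, the hepatic pyruvate kinase, was higher in males at 3 wk and higher in females at 8 wk. The gene has 2 promoters, an upstream one known from red cell precursors and a downstream one known from hepatocytes, whose response to sugar runs through an element bound by ChREBP (Mlxipl) with its partner Mlx. The 250 bases before each RefSeq start of Pklr are shown because the direction of the Pklr sex difference turned between 3 and 8 wk (GRCm38.p6, plus strand, 5′ to 3′). They cover chr3:89135892-89136141 and chr3:89136373-89136622. Capitals mark the letters AGATAA, bound by the GATA family, in the upstream sequence and, in the downstream sequence, the carbohydrate response element, the CCAAT box read on the opposite strand, and the TATA box (TATAAA).
Pklr upstream start: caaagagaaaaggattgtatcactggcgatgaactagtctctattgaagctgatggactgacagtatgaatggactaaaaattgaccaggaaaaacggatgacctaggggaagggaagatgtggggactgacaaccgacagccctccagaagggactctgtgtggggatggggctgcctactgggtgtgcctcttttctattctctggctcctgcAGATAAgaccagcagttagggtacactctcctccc
Pklr downstream start: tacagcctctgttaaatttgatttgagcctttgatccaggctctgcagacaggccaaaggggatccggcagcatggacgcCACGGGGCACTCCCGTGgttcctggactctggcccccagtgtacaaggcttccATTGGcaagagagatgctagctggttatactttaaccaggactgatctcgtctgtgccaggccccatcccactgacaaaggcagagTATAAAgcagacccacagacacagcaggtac
Both strands were searched, and none of the marked motifs overlap. The 17-letter element lies at -170 from the downstream start, the inverted CCAAT at -117 and TATAAA at -31, and AGATAA lies at -35 from the upstream start. Of 32,851 RefSeq promoters of the same length, 1 (0.00304%) holds the 17-letter spelling, 9.99% hold AGATAA, 12.4% hold TATAAA and 33.8% hold CCAAT. The spelling was taken from what is known of this gene, so that its rarity says nothing further about Pklr. Which start the RNA came from was not measured, since the position of the array probe (A_51_P176042) within the gene is not given in the sources used here.

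In M3/F3 the Pklr log2 ratio was 0.62 on one array and 0.29 on the other. The mean of 0.46 ± 0.10 (SE, n = 2 arrays; 1.37-fold) passed the test (limma, adjusted p = 0.03). Both arrays thus had more Pklr RNA in males at 3 wk. In M4/F4 the ratios were 0.42 and 0.30, with a mean of 0.36 (95% interval 0.12 to 0.61) that did not pass (adjusted p = 0.066). At 8 wk the sign was the opposite, with M8/F8 ratios of -0.47 and -0.33 and a mean of -0.40 ± 0.10 (1.32-fold lower in males; adjusted p = 0.0474).

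The age comparisons ran in opposite directions in the sexes. Pklr was 1.43-fold lower at 8 than at 3 wk in males, with M8/M3 ratios of -0.75 and -0.28 and a mean of -0.51 ± 0.10 (limma, adjusted p = 0.0194). In females the F8/F3 ratios were 0.36 and 0.31 (mean 0.34, adjusted p = 0.0843) and the F8/F4 ratios 0.45 and 0.43 (mean 0.44, 1.36-fold, adjusted p = 0.0343). M8/M4 gave -0.44 and -0.21, a mean of -0.33 that did not pass (adjusted p = 0.0922). All 8 arrays of these comparisons carried the sign of their sex, below 0 in males and above 0 in females. The M8/M3 difference passed in 13 of 14 fits that omitted 1 array and was lost without its own replicate 1 (adjusted p = 0.188). The other Pklr differences were less stable: M3/F3 and F8/F4 each passed in 6 of 14 such fits, and M8/F8 in the 2 that omitted an array of M8/M3. With the slide as a block M8/M3 passed (-0.60, adjusted p = 0.0395), and M3/F3 (0.37, adjusted p = 0.12), M8/F8 (-0.49, 0.0626) and F8/F4 (0.56, 0.0615) did not. A further fit entered the groups that comparisons share into the covariance of the arrays. It took same-numbered replicates as the same pools, which the labels do not state. In that fit Pklr passed in all 7 comparisons, including M4/F4 (limma, adjusted p = 0.0319), M8/M4 (0.0462) and F8/F3 (0.0418).

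The difference between the sexes in the change from 3 to 8 wk was -0.85 ± 0.15 (SE; 95% interval -1.2 to -0.50, limma adjusted p = 0.0281), a 1.8-fold divergence. M8/M3 and F8/F3 were scanned on different days. The same quantity taken as M8/F8 minus M3/F3, from arrays of the first day alone, was -0.86 ± 0.15 (adjusted p = 0.0263; 3.78% of genes tested were called in it). From 4 to 8 wk the divergence was -0.77 ± 0.15, from arrays of the second day alone, and did not pass (adjusted p = 0.0673). Taken as M8/F8 minus M4/F4 it was -0.77 ± 0.15 as well (adjusted p = 0.0757; 1.21% of genes tested were called). With the slide as a block the 3 to 8 wk value was -1.06 (adjusted p = 0.0729). Omitting single arrays moved it between -1.04 and -0.66 and left it called in 5 of 14 fits; the 9 arrays whose omission took it past an adjusted p of 0.05 were both arrays each of M4/F4, M8/M4, F8/F3 and F8/F4, and replicate 1 of M8/M3.

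Among the 6 groups the relative level of Pklr was highest in M3 (0.39 and 0.22 from the replicate 1 and 2 arrays), then in F8 (0.25 and 0.13), M4 (0.09 and 0.14), F3 (-0.17 and -0.12), M8 (-0.29 and -0.13) and F4 (-0.26 and -0.23). M3 and F8 overlapped, F8 and M4 overlapped, F3 and M8 overlapped, and M8 and F4 overlapped. M4 lay above F3 with no overlap. The levels come from the loops of shared groups, whose sums over the 20,451 probes well above background throughout had an SD of 0.13, against 0.21 between replicate arrays. Red cell precursors also use Pklr: of 6 erythroid markers measured, 4 were called lower at 8 wk in each of the 4 age comparisons. Alas2, the first enzyme of heme synthesis in red cell precursors, was called higher in M8/M3 (1.37) and M8/M4 (0.98) and had ratios of -0.27 and -0.24 in F8/F3 and F8/F4 that did not pass. It was also called higher in males in M8/F8 (1.89) and M4/F4 (0.78). The summed signal of the 6 was 68200 to 81100 in M3 and 63900 to 79700 in F3 against 38800 to 48800 in M8 and 35200 to 42300 in F8, with no marker at background throughout. The part of these cells in the Pklr result was not tested. Of 7 hepatocyte markers, 4 passed downward and 0 upward in M8/F8 (1 called lower). Their means there ran from -0.79 to 0.60, with 4 below 0 and 3 above 0 (median -0.41). In M8/M3, 2 passed upward and 3 downward, and in F8/F3 the counts were 1 and 1. Their part in the Pklr result was not tested either. In RNA of a whole tissue, fewer cells of a type and less RNA per cell cannot be told apart.

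**Figure D2:**
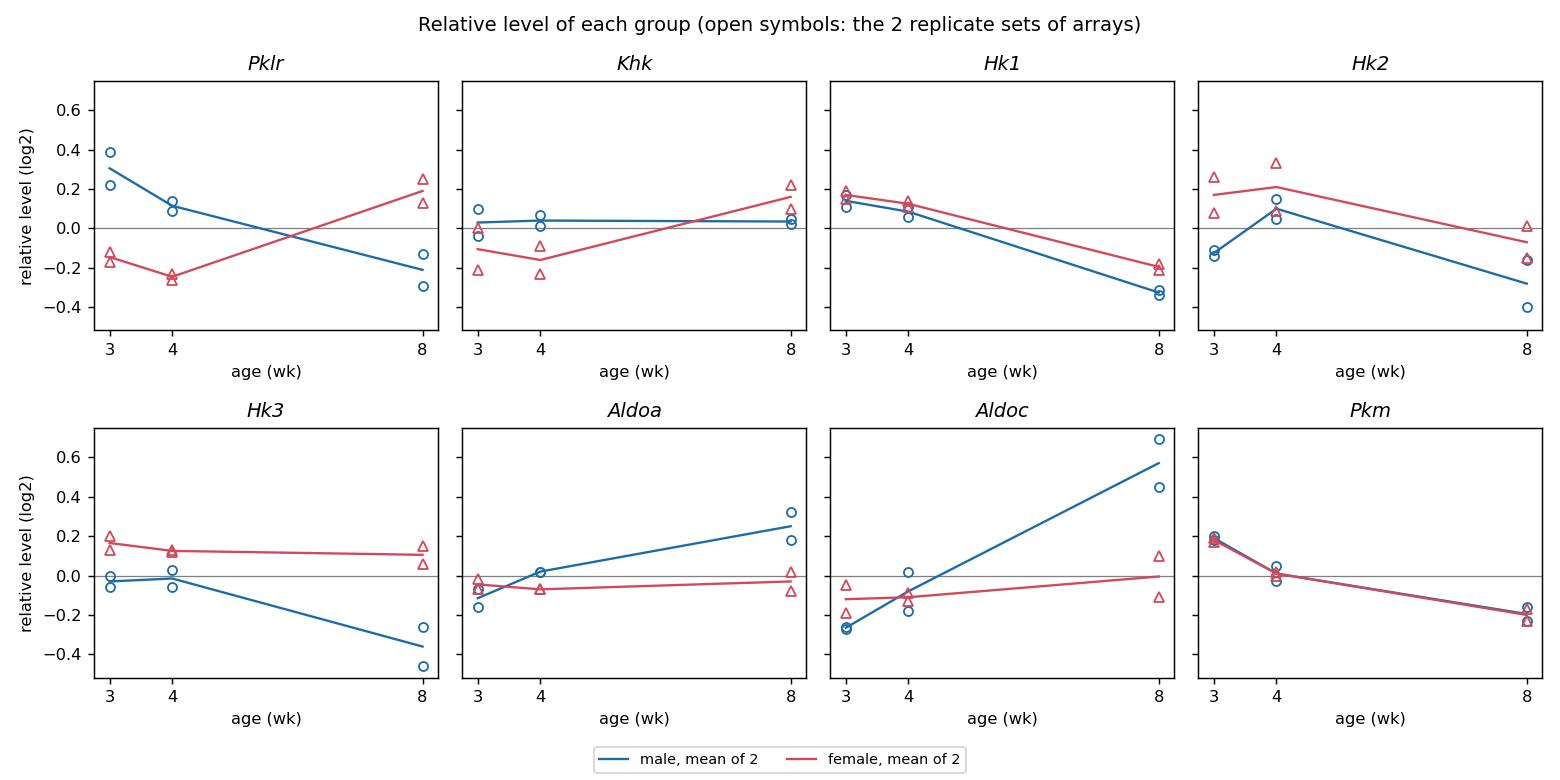
Relative log2 level of each isozyme (vertical axis) at 3, 4 and 8 wk (horizontal axis), in males (circles) and females (triangles). Open symbols come from the replicate 1 and replicate 2 arrays and lines join their means; the 2 Pklr lines cross between 4 and 8 wk, and the male Aldoc line ends at 0.57 while the female line stays between -0.12 and 0.

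Pkm encodes the pyruvate kinase of muscle, blood cells and dividing cells, and its RNA fell from 3 to 8 wk in both sexes. M8/M3 ratios were -0.38 and -0.36 (mean -0.37 ± 0.05, 1.29-fold lower, limma adjusted p = 0.00455), and F8/F3 ratios were -0.47 and -0.33 (mean -0.40 ± 0.05, 1.32-fold lower, adjusted p = 0.00339). The 95% interval of the difference between the sexes was -0.14 to 0.20. Beside it, in both M8/M3 and F8/F3, 4 of 6 erythroid, 7 of 8 neutrophil and 10 of 10 mitosis markers were called lower, and 1 erythroid marker (Alas2) was called higher in M8/M3. Their part in the Pkm result was not tested. M8/M4 (-0.18 and -0.27, mean -0.23) passed the test at an adjusted p of 0.029 (9 of 14 fits that omitted 1 array; 0.146 with the slide as a block), and F8/F4 (-0.27 and -0.11, mean -0.19) did not (0.0555). The relative level went from 0.20 and 0.18 in M3 through -0.03 and 0.05 in M4 to -0.16 and -0.23 in M8. These 3 ranges did not overlap, nor did those of F3 (0.19 and 0.17), F4 (0.02 and 0.00) and F8 (-0.23 and -0.17). Between the sexes the mean ratios of Pkm at 3, 4 and 8 wk were 0.03, -0.02 and 0.02, none of which passed the test.

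Set against each other, Pkm minus Pklr was negative on both arrays of M3/F3 (-0.57 and -0.29) and of M4/F4 (-0.46 and -0.31), and positive on both arrays of M8/F8 (0.58 and 0.26). With age it was -0.71 and -0.55 in F8/F4 and, in F8/F3, -0.83 and -0.64, so that it was negative on all 4 female arrays. In F8/F4 and F8/F3 the means were -0.19 and -0.40 for Pkm and 0.44 and 0.34 for Pklr. Of these, Pkm in F8/F4 and Pklr in F8/F3 did not pass the test. In males Pkm minus Pklr was 0.37 and -0.08 in M8/M3 and 0.26 and -0.06 in M8/M4, with no common sign. These are differences of ratios of 2 probes on the same array and were given no test.

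**Figure D3:**
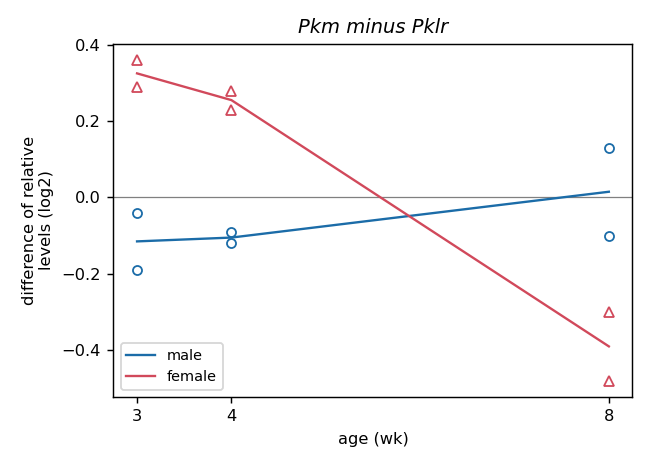
Difference between the relative log2 levels of Pkm and Pklr (vertical axis) at 3, 4 and 8 wk (horizontal axis), for males (circles) and females (triangles). Open symbols come from the replicate 1 and 2 arrays and lines join their means; the difference goes down in females to -0.48 and -0.30 at 8 wk. A value compares each gene with its own mean and not the amounts of the 2 RNAs.

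The aldolases split the phosphorylated sugar into smaller sugar phosphates. Aldoc, the brain-type isozyme, rose in male liver and is the only isozyme here with called ratios in an age comparison. In M8/M3 its ratios were 0.75 and 0.92, with a mean of 0.84 ± 0.16 (1.78-fold, limma adjusted p = 0.0165). In M8/M4 they were 0.43 and 0.83, with a mean of 0.63 ± 0.16 (1.55-fold, adjusted p = 0.0449). All 4 arrays were above 0. In females F8/F3 gave 0.31 and -0.08 (mean 0.11) and F8/F4 gave 0.29 and -0.05 (mean 0.12), and neither passed (adjusted p = 0.824 and 0.815).

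At 8 wk Aldoc was higher in males on both arrays (0.35 and 0.84). The mean of 0.59 (1.51-fold, 95% interval 0.21 to 0.98) did not pass the test (limma, adjusted p = 0.0568). At 3 wk the ratios were -0.10 and -0.20 and at 4 wk 0.10 and -0.06. The change from 3 to 8 wk differed between the sexes by 0.72 (95% interval 0.17 to 1.27), which did not pass either (adjusted p = 0.154), so a sex difference in the rise of Aldoc was not shown. The relative level in M8 (0.45 and 0.69) lay above all other groups, which ranged from -0.27 to 0.10. In order of mean, F8, M4, F4 and F3 each overlapped the next, and M3 (-0.26 and -0.27) lay below F3 (-0.19 and -0.05).

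The M8/M4 call held in 3 of 14 fits that omitted 1 array, those without either array of M8/F8 or without replicate 1 of M8/M4. Without replicate 2 of M8/M4 the ratio was 0.37. The call was also lost with the slide as a block (0.71, limma adjusted p = 0.158) and with the replicate number as a block (0.63, 0.0903). The M8/M3 call was lost without either of its own arrays (0.97 and 0.70; adjusted p = 0.0656 and 0.15) and with the slide as a block (0.77, adjusted p = 0.106). Of 5 adipocyte markers, 3 were bright enough to be tested in M8/M3 and 1 (Adrb3) was called higher. Their M8/M3 ratios were 2.31 to 4.01 on the replicate 2 array, whereas on the replicate 1 array Plin1 (-0.76) and Adipoq (-0.71) were below 0 and the other 3 above 0. The Aldoc ratio was 0.75 on the replicate 1 array and 0.92 on the replicate 2 array. In M8/F8, where Aldoc was 0.35 and 0.84, the means of all 5 markers were above 0 (0.13 to 1.84) and none was called. Their summed signal was 676 to 1280 in M3, 2810 to 4580 in M8, 1350 to 1570 in F3 and 2120 to 3940 in F8. Their part in the result was not tested. The genes most like Aldoc over the 14 arrays, among 3,539 genes called in some comparison, were Il12rb1 (Pearson r = 0.945) and H6pd (r = 0.941), a hexose-6-phosphate dehydrogenase of the endoplasmic reticulum. The arrays share groups, and these correlations are a description only.

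The 250 bases before the 2 RefSeq starts of Aldoc, the gene with the largest isozyme ratio here, are chr11:78322823-78323072 and chr11:78323948-78324197 (GRCm38.p6, plus strand). Capitals mark GGGCGG (a GC box) in the first and TTCNNNGAA (the motif of STAT factors, which carry growth hormone signals in liver) in the second.
Aldoc upstream start: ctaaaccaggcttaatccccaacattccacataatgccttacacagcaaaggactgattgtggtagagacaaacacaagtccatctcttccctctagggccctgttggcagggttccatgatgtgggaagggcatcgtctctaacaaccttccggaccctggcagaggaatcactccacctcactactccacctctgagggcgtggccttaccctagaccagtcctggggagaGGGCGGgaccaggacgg
Aldoc downstream start: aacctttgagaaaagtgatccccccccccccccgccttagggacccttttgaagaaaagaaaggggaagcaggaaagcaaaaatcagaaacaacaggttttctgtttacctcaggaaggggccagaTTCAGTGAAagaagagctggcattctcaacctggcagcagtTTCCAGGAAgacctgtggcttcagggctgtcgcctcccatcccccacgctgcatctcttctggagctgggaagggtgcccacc
GGGCGG lies at -17 from the upstream start and is held by 32.7% of promoters. The TTCNNNGAA matches lie at -124 and -83 from the downstream start and do not overlap, and 7.02% of promoters hold at least 1. Neither motif was found in the Pklr sequences. A match is no evidence that a factor binds there.

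Aldoa, the aldolase of muscle and red cells, gave smaller male ratios of the same sign. M8/M3 was 0.13 and 0.60 (mean 0.37 ± 0.09, 1.29-fold, limma adjusted p = 0.0321). The arrays differed widely, and without replicate 2 of M8/M3 the ratio was 0.22 (adjusted p = 0.285), and 7 of 14 fits that omitted 1 array passed. With the slide as a block it was 0.30 (adjusted p = 0.143). M8/M4 was 0.04 and 0.40 (mean 0.22, adjusted p = 0.155) and did not pass. M8/F8 was 0.28 and 0.29 (mean 0.29, adjusted p = 0.0742). In females F8/F3 (-0.02 and 0.05) and F8/F4 (-0.02 and 0.12) gave means of 0.01 and 0.05, with 95% intervals of -0.19 to 0.22 and -0.15 to 0.25. Skeletal muscle markers, which would mark the tissue richest in Aldoa, summed to 85 to 106 in M3 and 84.6 to 220 in M8. In females they summed to 71.7 to 99.7 in F3 and 87.6 to 214 in F8. In both M8/M3 and F8/F3, 2 of the 6 markers were bright enough to be tested and 1 was called lower. Their part in the result was not tested.

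Khk, the second hepatic isozyme, opens fructose breakdown, and none of its 7 ratios passed the test. In males M8/M3 ratios were 0.06 and -0.00 (95% interval of the mean -0.26 to 0.31) and M8/M4 ratios 0.07 and -0.07 (-0.28 to 0.29). In females the replicate 1 arrays gave 0.51 in F8/F3 and 0.54 in F8/F4, whereas the replicate 2 arrays gave -0.02 and 0.09. The means of 0.24 and 0.32 did not pass (limma, adjusted p = 0.267 and 0.147). The signs of the Khk means in M3/F3 (0.16), M4/F4 (0.20) and M8/F8 (-0.15) were those of Pklr, at smaller size. The difference between the sexes from 3 to 8 wk was -0.21 (95% interval -0.62 to 0.19).

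Slc2a5, the fructose transporter, changed most among the 30 other glycolytic and fructose pathway genes examined. Its ratios were 2.04 and 2.07 in M8/M3 (mean 2.05, 4.15-fold, limma adjusted p = 0.000101) and 1.87 and 1.77 in F8/F3 (mean 1.82, 3.53-fold, adjusted p = 0.000126), and M8/M4 (1.88) and F8/F4 (1.45) were called as well. The fructose transporter thus rose in both sexes. Tkfc, the triokinase of fructose breakdown, passed in none of the 7 comparisons (means -0.20 to 0.34).

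Hk1, the hexokinase of brain, red cells and most cells at rest, fell with age in both sexes on its brighter probe (A_55_P2027999). M8/M3 ratios were -0.49 and -0.47 (mean -0.48 ± 0.04, 1.4-fold lower, limma adjusted p = 0.000896), and M8/M4 ratios -0.42 and -0.45 (mean -0.43, adjusted p = 0.00129). F8/F3 ratios were -0.32 and -0.38 (mean -0.35, adjusted p = 0.00285), and F8/F4 ratios -0.27 and -0.33 (mean -0.30, adjusted p = 0.00531). All 8 arrays fell between -0.49 and -0.27, with the smallest SE of the 8 genes, and none of the means reached 1.5-fold. The sexes differed by -0.13 from 3 to 8 wk (95% interval -0.28 to 0.02). With the slide as a block F8/F4 did not pass (-0.28, adjusted p = 0.0662). No sex comparison of Hk1 passed (means -0.04, -0.06 and -0.09).

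The second Hk1 probe (A_55_P2118843) disagreed. Its signal of 28.1 to 64.9 was weak, against 354 to 823 for the first, and its age ratios were 0.17, 0.21, 0.16 and 0.23, none of which passed. When both probes were averaged, M8/M3 was -0.15 (adjusted p = 0.137) and none of the 4 age ratios passed. Both probes carry the same RefSeq accession, so that the fall of Hk1 rests on 1 probe. Hk1 is also a red cell gene, and 4 of the 6 erythroid markers were called lower at 8 wk in both sexes, with Alas2 called higher in males; their part in the result was not tested.

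Hk3, known from neutrophils and macrophages, was lower in males than in females at 8 wk. M8/F8 ratios were -0.40 and -0.65 (mean -0.53 ± 0.09, 1.44-fold lower, limma adjusted p = 0.0106), and without replicate 2 the mean was -0.38 (adjusted p = 0.106). With the slide as a block it was -0.45 and did not pass (adjusted p = 0.0666). At 3 and 4 wk the means were -0.17 and -0.11 and did not pass. The relative level in M8 (-0.26 and -0.46) lay below the other 5 groups (-0.06 to 0.20). M8/M3 (-0.21 and -0.39) and M8/M4 (-0.17 and -0.46) did not pass (adjusted p = 0.0771 and 0.0678), and in females F8/F3 and F8/F4 had 95% intervals of -0.31 to 0.13 and -0.27 to 0.16. Whether the sex difference changed with age did not pass either (-0.36 for M8/F8 minus M3/F3, adjusted p = 0.196).

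Macrophage and neutrophil markers were measured beside Hk3. In M8/F8, 7 of 7 measured macrophage markers were lower in males and passed the test. The macrophage summed signal was 20500 to 26300 in M8 against 32300 to 36100 in F8, 30800 to 34900 in M3 and 38300 to 41300 in F3. Neutrophil markers summed to 1310 to 2030 in M8 and 1590 to 2290 in F8. At 3 wk they summed to 5090 to 5330 in M3 and 9040 to 11400 in F3. Hk3 ratios were -0.21 and -0.39 in M8/M3 and -0.12 and -0.06 in F8/F3, and neither mean passed. The part of these cells in the Hk3 ratio was not tested.

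Hk2, the insulin-responsive hexokinase of muscle, fat and dividing cells, passed in none of the 7 comparisons. Its age means were all below 0, at -0.27 in F8/F4, -0.23 in F8/F3, -0.39 in M8/M4 and -0.17 in M8/M3, with the smallest adjusted p in M8/M4 (0.167, 95% interval -0.76 to -0.02). Its arrays spread more than those of Hk1, for example -0.47 and -0.07 in F8/F4 and 0.04 and -0.41 in M8/F8. Over the same ages 10 of 10 mitosis markers were called lower in each of the 4 comparisons, with median log2 ratios of -3.77 in M8/M3 and -3.23 in F8/F3. Their part in the Hk2 and Hk1 ratios was not tested.

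Mlxipl encodes the factor that binds the carbohydrate response element, and its RNA rose in both sexes from 3 wk. The male ratio (M8/M3) was 0.34 (limma, adjusted p = 0.0153) and the female ratio (F8/F3) 0.42 (adjusted p = 0.00684). Over the same ages Pklr had a male ratio of -0.51. Its female ratio of 0.34 did not pass the test (limma, adjusted p = 0.0843). The part of Mlxipl in the Pklr ratios was not tested. Mlx, the partner of Mlxipl, passed in no comparison. Mlxipl, Mlx, Tkfc and Alas2 were named after their values were seen.

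Of the 30 other genes of the pathway, all on the array, 2 were called higher and 1 lower both in F8/F3 and in M8/M3 (background 11.7% and 17.8% in either direction), and 1 higher both in F8/F4 and in M8/M4 (6.00% and 10.8%). None was called in the sex comparisons, and none passed for the sex difference in the change with age. Without the threshold on the ratio, 7 passed upward and 5 downward in M8/M3 (21.7% and 20.3% of all genes tested), and 7 and 7 in F8/F3 (17.0% and 16.6%). In M8/F8, 4 passed upward and 3 downward (21.8% in either direction). Beside Slc2a5, Pfkm was called higher in M8/M3 (0.60), and the glucose transporter Slc2a2 in F8/F3 (0.75). Pfkfb1, the liver form of the enzyme that makes and breaks the phosphofructokinase activator, was called lower in both M8/M3 (-0.94) and F8/F3 (-0.70). The 30 genes had a median log2 ratio of -0.15 in F8/F3 and -0.01 in M8/M3, against 0.02 and 0.01 over all genes tested.

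**Figure D4:**
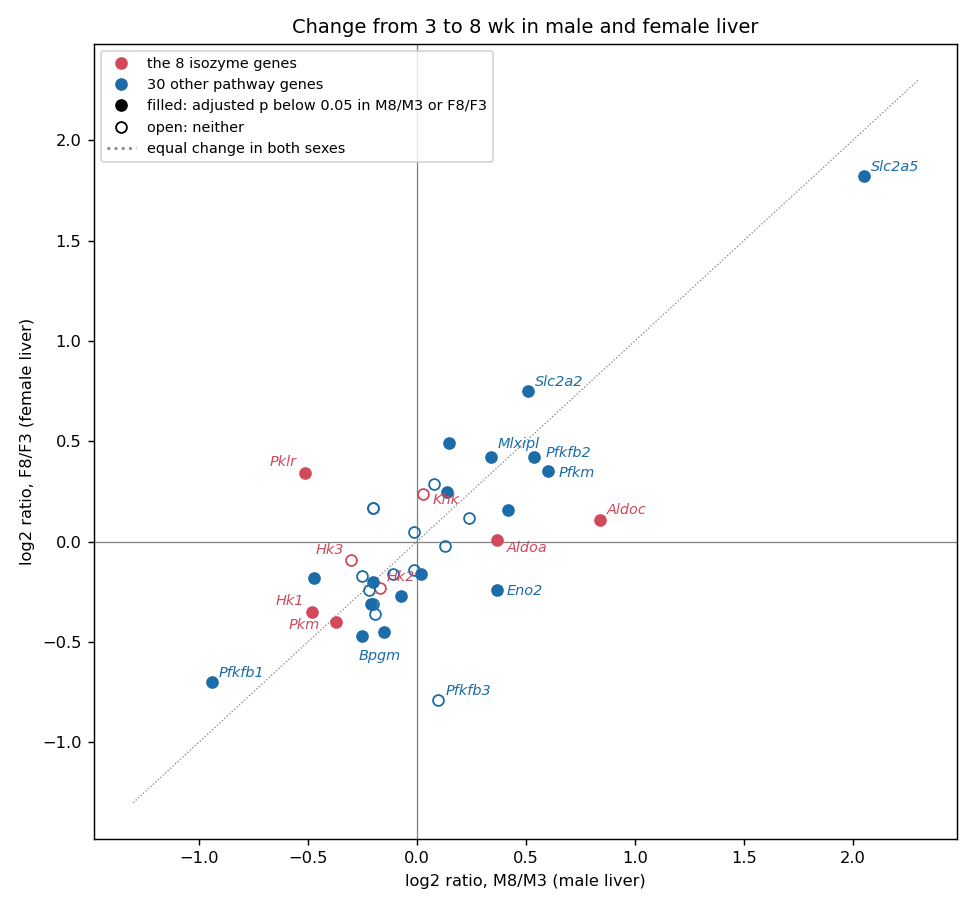
Log2 ratio of 8 over 3 wk in males (horizontal axis) and females (vertical axis) for the 8 isozyme genes (red) and 30 other pathway genes (blue), 2 arrays each; filled points passed the test in at least 1 sex and the dotted line marks equal change. Pklr lies at -0.51 and 0.34, far from the line, Hk1 and Pkm lie near it, and Slc2a5 lies at 2.05 and 1.82.

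By group, the 2 hepatic isozymes, Pklr and Khk, had means of -0.51 and 0.03 in M8/M3 and of 0.34 and 0.24 in F8/F3. The 6 non-hepatic isozymes had a median of -0.23 in M8/M3 (range -0.48 to 0.84; 2 passed upward and 2 downward, where 21.7% and 20.3% of genes tested did) and -0.16 in F8/F3 (range -0.40 to 0.11; 0 upward and 2 downward, where 17.0% and 16.6% did). The non-hepatic isozymes differed among themselves: Hk1, on the brighter of its 2 probes, and Pkm fell from 3 to 8 wk in both sexes. Aldoc rose in males, though a sex difference in its rise was not shown, and Hk3 was lower in males at 8 wk. With the slide as a block the Aldoc and Hk3 ratios did not pass.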

How the data were processed

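The authors hybridized liver RNA pools of 5 mice (3 wk) or 6 mice (4 and 8 wk) to Agilent 2-colour arrays, 2 per comparison with dyes exchanged. The deposited scanner output, made with Feature Extraction 10.7.1.1, holds intensity values per spot and the log10 ratio of red over green after background subtraction and dye normalization by the authors. Per the file headers the arrays used 4 slides and 2 scan days. Here log10 ratios were converted to log2, turned by dye, averaged over spots of a probe after leaving out 0 to 10 non-uniform spots per array, and fitted in R 4.3.3 with limma 3.58.1 (7 comparisons and 1 dye term). Deposited processed intensity gave the signal ranges, and median and background intensity a normexp correction (offset 50) as an alternative. The deposited table of log10 ratios had no difference from the scanner ratios. Genes were named by RefSeq accession (26,055 of 39,429 probes), and the brightest probe was used. Benjamini-Hochberg adjustment ran over all probes of the 7 comparisons at once, and within each interaction. The fit was tested on simulated data. Alternatives covered the threshold, dye term, blocks, background correction, probe choice and each array left out. Relative levels were fitted by least squares over the 7 arrays of a replicate number after removing the dye term. All 8 members were named, and of the 30 pathway genes those called in a comparison, with Slc2a2 (2 others that the rule names are not reported here); 3 more were added after their values were seen. Members and lists were chosen with earlier results of these data known. Promoter sequences are from RefSeq (GRCm38.p6). Probe and protein sequences were not used here.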

Additional observations from a re-analysis of the deposited data

Results flagged for a closer look

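The change of Pklr from 3 to 8 wk differed between the sexes, by -0.85 on the log2 scale (M8/M3 minus F8/F3; SE 0.15, limma adjusted p = 0.0281 over all probes). Both male arrays were below 0 (-0.75 and -0.28) and both female arrays above 0 (0.36 and 0.31). The call was lost with the slide as a block (-1.06, limma adjusted p = 0.0729) and in most of the fits that omitted a single array. By the same rule (adjusted p below 0.05 and beyond 1.5-fold) a difference between the sexes was called for 3.35% of all genes tested.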

How the results depend on the processing

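In each comparison the count of isozymes called by the reported rule was compared with that under the alternatives. Without a threshold on the ratio the counts were 2 in F8/F4, 2 in F8/F3, 3 in M8/M4, 5 in M8/M3, 2 in M8/F8 and 1 in M3/F3. At an unadjusted limma p of 0.0001, with the 1.5-fold threshold kept, the count was 0 in M8/M3, 0 in M8/M4 and 0 for the sex difference in the change from 3 to 8 wk. The error-weighted average gave 0 in M8/M4 (Aldoc 0.63) and 0 for that sex difference (Pklr -0.84). Its calls also used the threshold of 0.0001 in place of an adjusted p of 0.05. Averaging and threshold thus changed together, and their effects on these counts cannot be told apart. The slide as a block, with the thresholds of the reported rule, gave 0 in M8/M4 and 0 for that sex difference too. With that block the 1 call in M8/M3 was Pklr (-0.60, adjusted p = 0.0395) in place of Aldoc (0.77, 0.106). Normexp with loess gave 0 in M8/M4 (Aldoc 0.56). Without the dye term, with shared pools in the covariance, and with only probes well above background everywhere, M8/F8 had 1 call (Aldoc, adjusted p = 0.0488, 0.0229 and 0.0208). That last setting also gave 1 call for the sex difference from 4 to 8 wk (Pklr, adjusted p = 0.0282). With 6 group means in place of 7 comparisons there were 2 and 1 calls for the sex differences from 3 and from 4 wk. The labels do not say that replicate numbers pair the samples. The correlations of same-numbered deviations between comparisons ran from -0.56 to 0.69. With the replicate block M8/M4 had 0 calls (Aldoc, adjusted p = 0.0903), and it changed no other call beyond 1.5-fold. By the adjusted p alone 15 of 56 ratios passed as reported. The replicate block ended 6 of them, namely that one, Pklr in M3/F3 (adjusted p = 0.0673), M8/F8 (0.081) and F8/F4 (0.075), Aldoa in M8/M3 (0.0717) and Pkm in M8/M4 (0.0636), and added 0. The slide as a block ended 9 and added 0, the average over probes ended 4 (all Hk1), leaving out the dye term ended 3 (Aldoa in M8/M3, 0.155, and Pklr in M8/F8 and F8/F4) and added 1, and adjusting within each comparison ended 2 and added 1. The 6 group means added 12, probes well above background everywhere 8, shared pools 6 and normexp with loess 2, and these 4 ended 0. Pklr in M4/F4, M8/M4 and F8/F3, Aldoa and Aldoc in M8/F8 and Pkm in F8/F4 were added by each of the first 3. When 1 array at a time was left out, the counts ranged from 0 to 1 in M8/M3, M8/M4, M8/F8 (Hk3, -0.67 without replicate 1) and the sex difference from 3 wk. The causes of these changes were not tested. No called ratio changed sign under any of these alternatives. The use of the sex comparisons for the sex difference was chosen after seeing the data.

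The precision is limited by 2 arrays per comparison. Each of the 8 genes had a probe well above background in 28 of 28 channels, and the 2 probes of Hk1 disagreed.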
